A study of Mus musculus with 6 samples.

Results

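Metallothioneins and zinc transporters are described here in the colonic mucosa of mice with a deficiency of a folate enzyme. The genes were chosen by name: the metallothioneins Mt1, Mt2, Mt3 and Mt4, the metal sensor Mtf1, the exporter family genes Slc30a1 and Slc30a10, and the importer family genes Slc39a4, Slc39a5 and Slc39a14. A gene counted as measured where a row of the array table (a transcript cluster) carried its symbol alone. This held for 8 of the 10 genes, out of 22180 genes with such a row in the whole table. Where a gene had several such rows the one with the highest mean was to be used, but each of the 8 had 1. Slc30a1 and Slc30a10 lay only on rows that carry several symbols, 2 rows each, so no value is given for them. Earlier results of these data were known when the genes were chosen, and Mt4 was already seen as one of the larger genotype differences, so its difference is a description with no test.

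RNA was measured on 6 arrays, 1 for each male BALB/c mouse: 4 WT (wild-type, Mthfd1S+/+) and 2 Mthfd1S+/- (heterozygous) animals, on a background backcrossed for at least 10 generations. The Mthfd1S allele lowers the synthetase activity of the cytosolic folate enzyme MTHFD1, and what it does to the transcript is not given in the sources used here. Every mouse, WT included, had received the colon carcinogen azoxymethane (6 mg/kg, into the peritoneal cavity) at 3 months of age by the protocol, and 3% dextran sulfate sodium, which injures the colonic epithelium, in 2 cycles of 4 days at weeks 1 and 4; the mice were killed at week 13. The tissue was mucosa of normal appearance next to a tumour, and the labels give an age of 7 months. Both genotypes thus carry the treatment, and the comparison asks only what differs with the allele. In such bulk tissue, fewer cells of a type and less RNA per cell cannot be told apart.

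Metallothioneins are small proteins rich in cysteine that bind zinc and copper and buffer them inside the cell. Mt1 and Mt2 are made in most tissues and are induced by zinc, glucocorticoids, inflammatory cytokines and oxidants, while Mt3 is best known from brain and Mt4 from stratified squamous epithelium. MTF1 is a zinc finger transcription factor that senses free zinc and binds metal response elements in front of Mt1, Mt2 and Slc30a1. Transporters of the SLC30 family move zinc out of the cytosol, and those of the SLC39 family move it in. In the intestine, SLC39A4 takes up dietary zinc at the apical side of the epithelium, SLC39A5 lies at the basolateral side, and SLC39A14 carries zinc, iron and manganese.

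The 4 metallothionein genes stand next to each other, as consecutive protein-coding genes in the order Mt4, Mt3, Mt2, Mt1. Their start regions are printed because Mt1 and Mt2 had like profiles over the mice, though the pair did not pass adjustment. Mt3 was less like them, and Mt4, which was dim, was not compared with them. Each window is 300 bases from RefSeq (GRCm38.p6, plus strand, running with the gene), from 250 bases before the annotated start site: chr8:94178839-94179138 for Mt1, chr8:94172368-94172667 for Mt2, chr8:94152357-94152656 for Mt3 and chr8:94136954-94137253 for Mt4. Capitals mark the core of the metal response element, searched as TGCACNC and TGCGCNC on both strands, with every match counted even where 2 overlap.
Mt1: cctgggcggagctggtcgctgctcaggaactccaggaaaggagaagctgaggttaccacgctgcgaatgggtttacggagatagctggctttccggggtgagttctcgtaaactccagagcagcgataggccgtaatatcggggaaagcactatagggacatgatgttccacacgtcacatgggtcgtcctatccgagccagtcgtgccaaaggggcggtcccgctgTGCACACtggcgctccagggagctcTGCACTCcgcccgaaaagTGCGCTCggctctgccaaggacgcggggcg
Mt2: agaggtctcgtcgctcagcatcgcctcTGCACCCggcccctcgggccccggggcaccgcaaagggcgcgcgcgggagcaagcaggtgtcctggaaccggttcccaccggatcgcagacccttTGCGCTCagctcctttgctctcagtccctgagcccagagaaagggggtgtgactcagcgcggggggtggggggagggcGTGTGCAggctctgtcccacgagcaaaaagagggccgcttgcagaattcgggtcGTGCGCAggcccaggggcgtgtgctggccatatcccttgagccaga
Mt3: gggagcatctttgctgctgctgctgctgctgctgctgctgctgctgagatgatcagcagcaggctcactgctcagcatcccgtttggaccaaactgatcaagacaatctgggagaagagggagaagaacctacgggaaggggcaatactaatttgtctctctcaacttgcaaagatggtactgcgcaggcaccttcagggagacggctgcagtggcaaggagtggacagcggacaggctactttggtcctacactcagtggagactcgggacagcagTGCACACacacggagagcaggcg
Mt4: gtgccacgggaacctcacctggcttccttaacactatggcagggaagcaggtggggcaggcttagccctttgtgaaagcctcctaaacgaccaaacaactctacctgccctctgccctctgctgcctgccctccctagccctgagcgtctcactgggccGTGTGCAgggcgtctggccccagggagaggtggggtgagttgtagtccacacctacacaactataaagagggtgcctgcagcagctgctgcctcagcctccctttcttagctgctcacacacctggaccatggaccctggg

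The window of Mt1 held 3 matches and that of Mt2 held 4, against 1 each for Mt3 and Mt4. In Mt1 the matches began at bases -23, 3 and 21 from the start site, all on the gene strand. Positions count from the annotated start, whose use in this tissue was not tested, and matches outside the windows were not counted. In Mt2 they began at -223 and -128 on the gene strand and at -50 and 5 on the opposite strand. Of 32851 RefSeq windows of this length, 25.7% held at least 1 match, 7.11% at least 2, 1.97% at least 3 and 0.517% at least 4. Of the other genes named at the outset, Slc30a1 had 2 matches and Slc30a10 had 3, Slc39a5 had 1 in the first of its 2 windows and 0 in the second, and Mtf1 had 0. A match of these letters is a description and no evidence of binding. Slc39a4 and Slc39a14 had no entry in the sequence table.

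**Figure D1:**
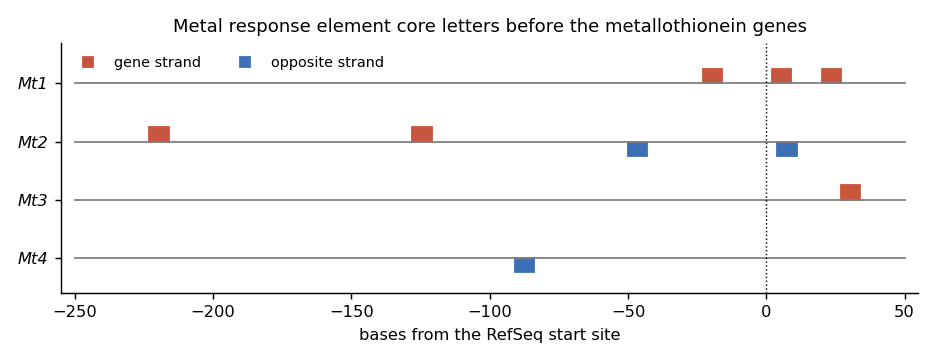
Matches to the metal response element core in the start regions of the 4 metallothionein genes, by distance in bases from the RefSeq start site (dotted line); red blocks above a line are on the gene strand and blue blocks below it on the opposite strand. Mt1 shows 3 blocks, Mt2 shows 4, and Mt3 and Mt4 show 1 each.

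Array medians ran from 5.48 to 5.53 (log2), and any pair of arrays correlated at 0.991 to 0.995 across clusters. Of the colonic epithelium markers 13 of 13 were above the dim limit, as were 10 of 10 smooth muscle and 8 of 8 fibroblast markers. These counts do not tell how much of each layer the samples held. That limit, 5.24, is the 95th percentile of 1405 olfactory and vomeronasal receptor clusters, and it left 35.9% of all tested clusters dim. The small intestine list had 7 of 9 above the limit. Mthfd1 itself averaged 7.63 ± 0.10 in WT (SD, n = 4), and 7.79 ± 0.23 in Mthfd1S+/- mice (SD, n = 2); since the effect of the allele on the transcript is not known here, this does not check the labels.

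Mt1 and Mt2 spanned more among the WT mice than the difference between the genotype means. On the log2 scale, Mt1 read 10.16, 10.70, 10.19 and 10.56 in WT mice (1 to 4) against 10.45 and 10.39 in the Mthfd1S+/- mice. WT mice 2 and 4 were high and WT mice 1 and 3 low, with both Mthfd1S+/- mice between these pairs, so the groups overlapped. Mt2 read 9.21, 10.43, 9.25 and 10.08 in the WT mice against 9.69 and 9.91 in the Mthfd1S+/- mice. The same WT mice were high and low, and the Mthfd1S+/- mice again lay between them. From the lowest to the highest WT mouse Mt2 spanned 1.22 on the log2 scale, or 2.33-fold, and Mt1 0.54, or 1.46-fold. The median of this span over tested clusters that were not dim was 0.23. The second Mthfd1S+/- mouse minus the first was -0.065 for Mt1 and 0.22 for Mt2.

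The genotype difference (Mthfd1S+/- minus WT, log2) was 0.020 ± 0.16 (SE) for Mt1, with a 95% interval of -0.35 to 0.39 and an adjusted p of 0.993 in limma. For Mt2 it was 0.057 ± 0.33 (SE), with an interval of -0.69 to 0.81 and an adjusted p of 0.989. The Mt2 interval runs from 0.619-fold to 1.75-fold of the WT level, so changes inside that range cannot be told from none with these arrays. For both genes the sign of the difference turned when WT mouse 1 or WT mouse 3 was left out, to -0.062 and -0.050 for Mt1 and to -0.12 and -0.11 for Mt2. It also turned without the first Mthfd1S+/- mouse for Mt1 (-0.012) and without the second for Mt2 (-0.050).

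**Figure D2:**
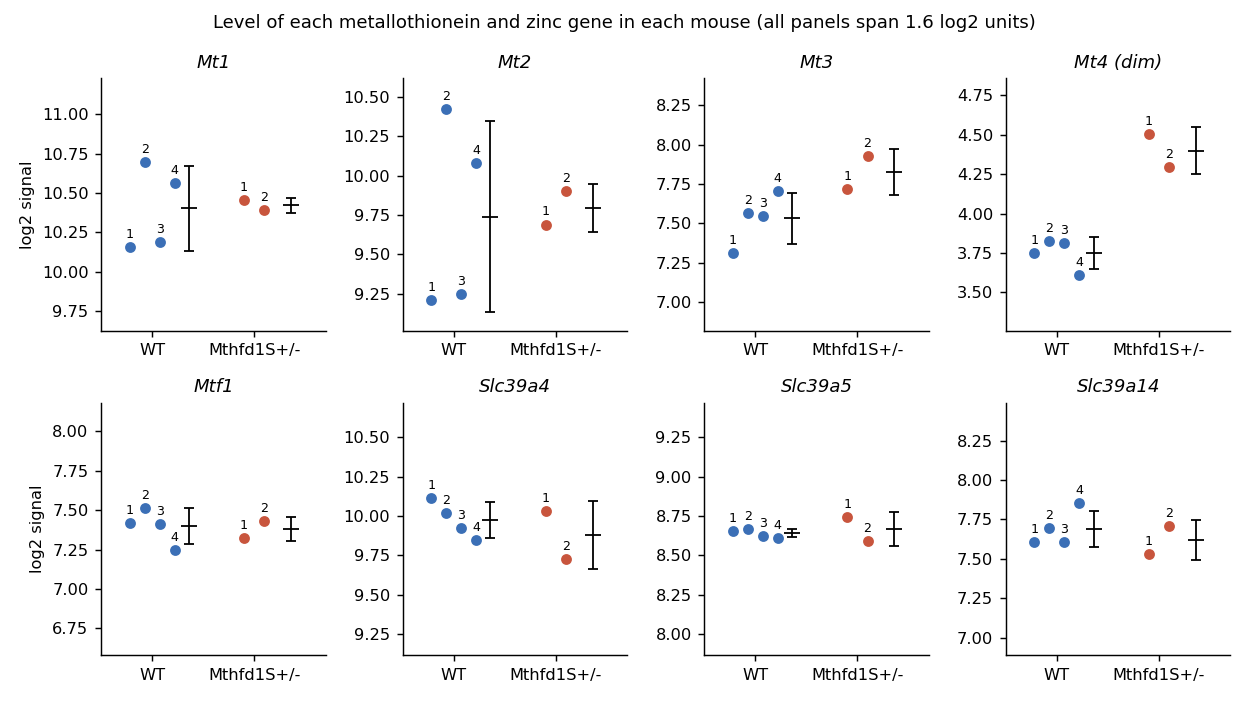
Log2 signal of the 8 measured genes in each mouse (points, numbered by replicate; blue WT, red Mthfd1S+/-), with the group mean and SD as black bars; each panel has its own level but the same span. For Mt1 and Mt2 the Mthfd1S+/- mice lie between the low WT mice 1 and 3 and the high WT mice 2 and 4, while for Mt3 and Mt4 both lie above all WT mice.

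Mt1 and Mt2 followed each other across the mice. Pearson's r over the 6 mice was 0.970 (exact permutation p = 0.0042, two-sided) and Spearman's rho 0.943 (exact permutation p = 0.017). Over the 21 pairs among the 7 genes that were not dim, the Benjamini-Hochberg adjusted exact permutation p-values were 0.0875 and 0.350, so the pair did not pass. Without the 2 mice farthest from the median of Mt1, r was 0.913. Both genes stand side by side and are close in sequence, and whether the probes of one also read the other was not tested. Mt3 was less like them, with r of 0.412 to Mt1 and 0.478 to Mt2 (exact permutation p = 0.42 and 0.34). Mtf1, which acts on Mt1 and Mt2, gave r of -0.025 and 0.087 to them (exact permutation p = 0.96 and 0.88).

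Among 13477 other genes that were not dim, the profile nearest to Mt1 was that of the zinc finger gene Zkscan7, followed by Sytl1, Zfp318, Agmo and Pik3r3. Likeness was the root mean square difference over the 6 mice after each profile was centred on its own mean, and it was 0.068 for Zkscan7 and 0.082 for Pik3r3 on the log2 scale. The nearest to Mt2 were Naaladl2 (0.22), Capn6 (0.23), A4gnt (0.24), the immunoglobulin segment Igkv6-14 (0.25) and Golm2 (0.26). These distances are larger than those to Mt1, and the SD over the 6 mice was 0.48 for Mt2 itself and 0.26 for Naaladl2. The names are the nearest of a large number over few mice and carry no test.

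**Figure D3:**
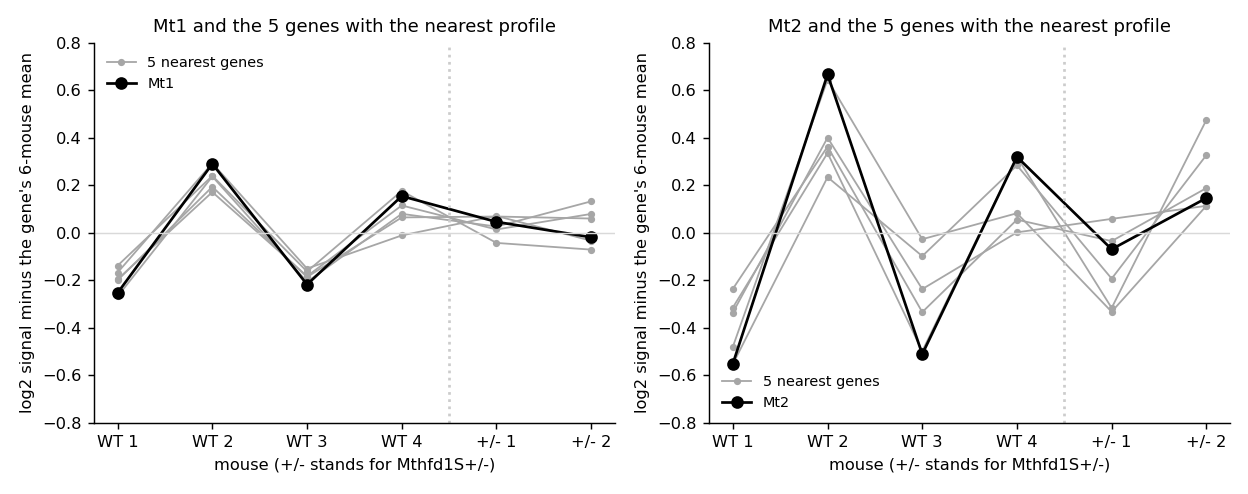
Log2 signal minus the gene's own 6-mouse mean for Mt1 (left) and Mt2 (right) in black and for the 5 genes nearest to each in grey, by mouse, with the Mthfd1S+/- mice right of the dotted line. The black lines have peaks at WT mice 2 and 4; the grey lines keep close to Mt1 but reach less far than Mt2.

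Within the WT group the SD of Mt2 was 0.61, larger than that of 99.7% of the 15078 tested clusters that were not dim, and the SD of Mt1 was 0.27, larger than that of 95.6%. The median WT SD of such clusters was 0.10. At the other end stood Slc39a5, whose WT SD of 0.025 was larger than that of only 2.04% of them. Mt3 had a WT SD of 0.16 and Mtf1, Slc39a4 and Slc39a14 of 0.11, 0.11 and 0.12. No WT value of the 8 genes stood apart from its group by Dixon's criterion.

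**Figure D4:**
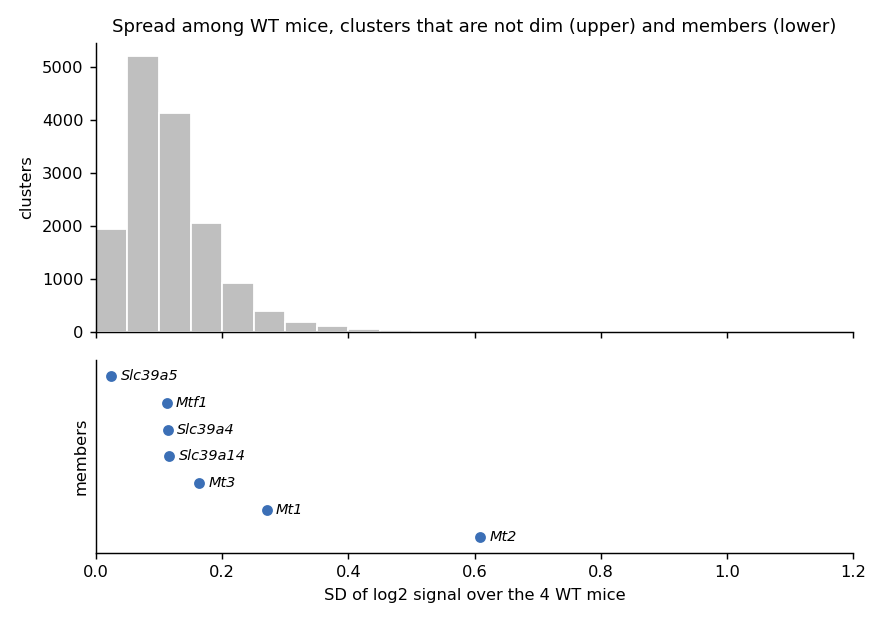
Number of tested clusters that are not dim by the SD of their log2 signal over the 4 WT mice (upper panel, grey bars), and the same SD for the 7 genes that are not dim (lower panel, points). The axis ends at 1.2. Mt2 at 0.61 and Mt1 at 0.27 lie in the right tail, and Slc39a5 at 0.025 at the left edge.

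Across the whole table, 0 of 23521 clusters (0%) passed limma at an adjusted p under 0.05, where the smallest adjusted p was 0.837, and ordinary least squares also called 0. An unadjusted p under 0.05 was reached by 1363 clusters, or 5.79%, of which 3.36% of all clusters were higher and 2.44% lower in Mthfd1S+/- mucosa; Mt3 was among the higher ones. Mt4, whose values had been seen beforehand, is given without a test. In 14.0% of clusters the values of the 2 groups did not overlap, 7.96% with Mthfd1S+/- higher and 6.04% with it lower; of the 8 genes these were Mt3 and Mt4, both higher. The 8 genes split into 5 with a positive and 3 with a negative difference, with a median log2 difference of 0.024, beside 0.012 over all tested clusters. Since Mt4 was known beforehand, nothing is read from these counts about the genes as a group.

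Mt3, which binds zinc and copper chiefly in neurons and astrocytes, read 7.31, 7.57, 7.55 and 7.70 in the WT mice against 7.72 and 7.93 in the Mthfd1S+/- mice. Both Mthfd1S+/- values lay above the WT values, the first of them only just. The means were 7.53 ± 0.16 (SD, n = 4) and 7.82 ± 0.15 (SD, n = 2). The log2 difference was 0.29 ± 0.12 (SE), or 1.22-fold, with a 95% interval of 0.012 to 0.57, and limma gave an adjusted p of 0.837, so it did not pass. It was 0.19 without the second Mthfd1S+/- mouse and 0.39 without the first.

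Marker lists of other tissue layers lay on both sides of 0, where 54.0% of all tested clusters were higher in Mthfd1S+/- mucosa, and 0 markers passed after adjustment. All 8 measured markers of enteric neurons and glia were higher in Mthfd1S+/- mucosa (median log2 difference 0.22; 2 of the 8 were dim), as were 10 of 10 smooth muscle markers (0.23) and 8 of 8 fibroblast markers (0.17). Of the colonic epithelium markers 2 were higher and 11 lower (-0.074), and all 7 measured adipocyte markers were lower (-0.89, 2 of the 7 dim). The adipocyte list varied widely among the WT mice. Its mean over centred genes was -0.41 to 1.25 there, against -0.63 and -0.52 in the Mthfd1S+/- mice. With each gene centred on its mean, the neuron and glia list averaged -0.31 to 0.12 in the WT mice against 0.018 and 0.34 in the Mthfd1S+/- mice, and the smooth muscle list -0.25 to 0.11 and then -0.074 and 0.36. The first Mthfd1S+/- mouse was thus inside the WT range for the neuron and smooth muscle lists, and the second was above it. The part of these tissues in the Mt3 level was not tested.

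Mt4, a metallothionein of stratified squamous epithelium, read 3.75, 3.83, 3.81 and 3.61 in the WT mice against 4.51 and 4.29 in the Mthfd1S+/- mice. All these values are below the dim limit of 5.24, so they cannot be told from background. The groups did not overlap, and the means differed by 0.65 on the log2 scale, given as a description. When each mouse was left out in turn this ran from 0.54 to 0.76. Of the stratified squamous markers 7 of the 10 measured were dim as well, and 5 were higher and 5 lower in Mthfd1S+/- mucosa. The list averaged -0.073 to 0.083 in the WT mice against 0.079 and -0.024 in the Mthfd1S+/- mice, and the part of this epithelium in the Mt4 level was not tested.

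Mtf1, the zinc-sensing transcription factor, had a WT SD of 0.11, close to the median of 0.10 for clusters that were not dim. It read 7.42, 7.52, 7.41 and 7.25 in the WT mice against 7.32 and 7.43 in the Mthfd1S+/- mice. Both Mthfd1S+/- values lay inside the WT range, and the log2 difference was -0.022 ± 0.098 (SE), with a 95% interval of -0.25 to 0.20 and an adjusted p of 0.988 in limma. A second cluster that carries Mtf1 together with another symbol was not used.

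The importers of the gut epithelium showed no difference that passed. Slc39a4, the apical zinc importer whose human counterpart is mutated in acrodermatitis enteropathica, read 10.11, 10.02, 9.93 and 9.85 in the WT mice against 10.03 and 9.73 in the Mthfd1S+/- mice. One Mthfd1S+/- mouse lay within the WT values and the other below them. The log2 difference was -0.098 ± 0.12 (SE), with a 95% interval of -0.36 to 0.17 and a limma adjusted p of 0.941. Without the second Mthfd1S+/- mouse it was 0.055.

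Slc39a5, the basolateral importer, read 8.66, 8.67, 8.63 and 8.61 in the WT mice, a span of 0.052. The Mthfd1S+/- mice read 8.74 and 8.59, the first above and the second below all WT mice, so the spread between the Mthfd1S+/- mice exceeded that of the WT group. The log2 difference was 0.029 ± 0.084 (SE), with an interval of -0.16 to 0.22 and an adjusted p of 0.978 in limma. Of the exocrine pancreas markers, another tissue rich in Slc39a5, 3 of 5 measured were dim, and 2 were higher and 3 lower in Mthfd1S+/- mucosa.

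Slc39a14, an importer of zinc, iron and manganese that is induced by interleukin-6, read 7.61, 7.70, 7.61 and 7.85 in the WT mice against 7.53 and 7.71 in the Mthfd1S+/- mice. The groups overlapped, with a log2 difference of -0.072 ± 0.10 (SE), an interval of -0.31 to 0.17 and an adjusted p of 0.95 in limma. The highest WT mouse for this gene was mouse 4, which was second highest for Mt1 and Mt2. Over the 6 mice, r was 0.490 to Mt1 and 0.588 to Mt2 (exact permutation p = 0.33 and 0.21, adjusted 0.890 and 0.792).

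Among the other pairs, Mt3 and Slc39a4 had r of -0.832 and rho of -0.600 (exact permutation p = 0.044 and 0.24, adjusted 0.467 and 0.846). Without the 2 mice farthest from the median of Mt3, r was -0.118, so this relation rests on those mice. Slc39a4 and Slc39a5 had r of 0.711 and rho of 0.83 (exact permutation p = 0.11 and 0.058, adjusted 0.758 and 0.408), and r of 0.835 without the 2 farthest. The third importer, Slc39a14, had negative values to both. To Slc39a4 it had r of -0.580 and rho of -0.829 (exact permutation p = 0.23 and 0.058, adjusted 0.792 and 0.408). To Slc39a5 it had r of -0.686 and rho of -0.771 (exact permutation p = 0.14 and 0.10, adjusted 0.758 and 0.540). After adjustment 0 of the 21 pairs passed with either measure; at an unadjusted exact permutation p under 0.05, Pearson's r gave 2 pairs (Mt1 with Mt2, and Mt3 with Slc39a4) and Spearman's rho the first of these.

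The other zinc transporters were set beside these genes. Of 9 other exporter genes (the rest of the SLC30 family and Tmem163), all measured, 4 were higher and 5 lower, 0 at an unadjusted p under 0.05, with a median log2 difference of -0.013. Slc30a2, which loads zinc into vesicles, read 5.21, 5.39, 5.24 and 5.11 in the WT mice against 6.26 and 5.12 in the Mthfd1S+/- mice. Its difference of 0.45 ± 0.26 (SE; limma adjusted p = 0.869) rested on the first Mthfd1S+/- mouse, the only one of the pair above the WT values, and its level is close to the dim limit. Slc30a3 had 0.11 ± 0.099 and Slc30a5 -0.086 ± 0.083.

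Of 11 other importer genes, all measured, 7 were higher and 4 lower, with a median log2 difference of 0.031. At an unadjusted p under 0.05 were 2 of them, both higher, beside 3.36% of all clusters in that direction, and 0 passed after adjustment. Slc39a8, which like Slc39a14 carries manganese, iron and zinc, read 8.15, 8.25, 8.03 and 8.36 in the WT mice against 8.55 in both Mthfd1S+/- mice. The Mthfd1S+/- mice were above all WT mice, with a log2 difference of 0.36 ± 0.11 (SE) and an interval of 0.12 to 0.60 (limma adjusted p = 0.837). Slc39a3, an importer of the plasma membrane, read 7.01, 7.02, 7.11 and 7.09 against 7.19 and 7.32, a difference of 0.20 ± 0.085 (SE; limma adjusted p = 0.837). Slc39a2 lay lower in both Mthfd1S+/- mice, at 5.28 and 5.23 against 5.32 to 5.55, with a difference of -0.19 ± 0.093 (SE; limma adjusted p = 0.846). Its mean level of 5.39 is close to the dim limit of 5.24, and the lower Mthfd1S+/- value is at that limit.

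**Figure D5:**
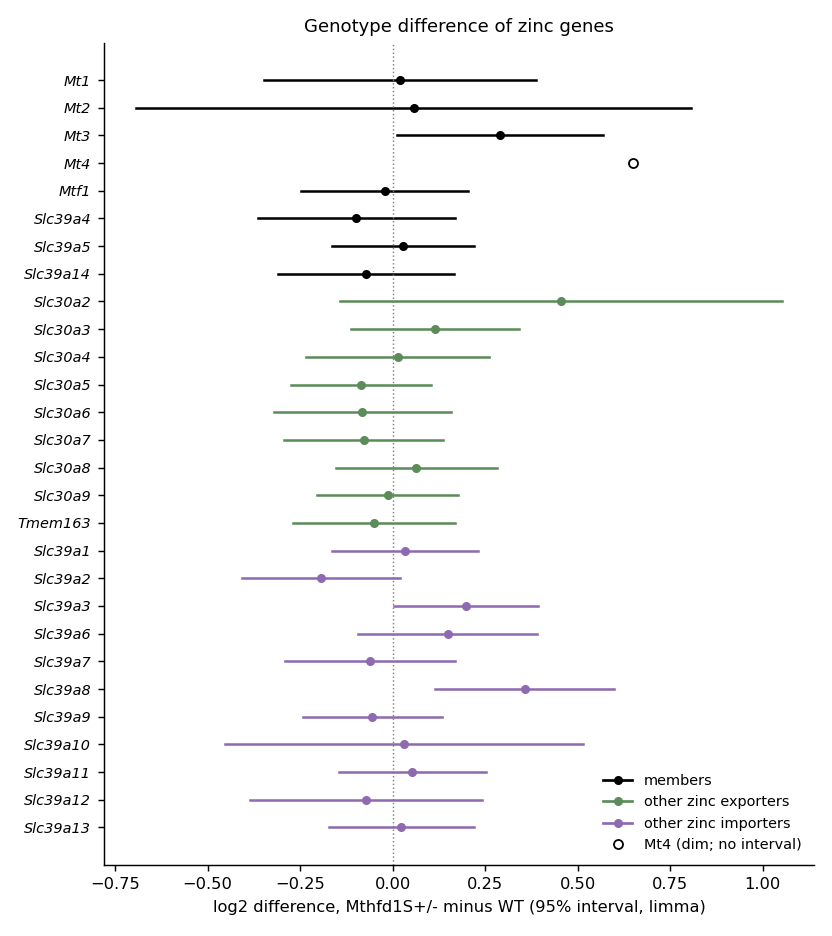
Log2 difference between genotypes (Mthfd1S+/- minus WT; points) with its 95% interval from limma (lines) for the measured genes in black (Mt4 without an interval), 9 other zinc exporters in green and 11 other zinc importers in purple. The intervals of Mt3, Slc39a3 and Slc39a8 lie right of 0 before adjustment, and 0 of these genes passed after it.

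Signals known to act on Mt1 and Mt2 were read from further lists. Of 9 glucocorticoid-induced genes, 7 were higher and 2 lower in Mthfd1S+/- mucosa (median log2 difference 0.18), with 3 higher and 1 lower at an unadjusted p under 0.05 and 0 after adjustment, beside 3.36% higher and 2.44% lower over all clusters. They were Zbtb16 at 0.71 ± 0.13 (SE), the kinase gene Pdk4 at 0.62 ± 0.14, Errfi1 at -0.46 ± 0.14 and, chosen after its value was seen, Klf9 at 0.46 ± 0.15. Zbtb16 and Pdk4 were known from earlier results, so nothing is read from that count. The mean of the list, with each gene centred, was lowest in WT mouse 1 at -0.24, a mouse low in Mt1 and Mt2, and highest in the second Mthfd1S+/- mouse at 0.26, which lay in the middle for both. It was 0.0055 and -0.0033 in WT mice 2 and 4, both high in Mt1 and Mt2. The part of glucocorticoids in the Mt1 and Mt2 levels was not tested.

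Of 12 oxidative and metal stress genes, 7 were higher and 5 lower (median 0.062), 0 at an unadjusted p under 0.05; Gclc, which limits glutathione synthesis, had 0.21 ± 0.13 (SE), Srxn1 -0.13 ± 0.083 and the dim Slc7a11 -0.14 ± 0.11. With each gene centred, the list mean was 0.29 in WT mouse 2, the mouse highest in Mt1 and Mt2. It was -0.16 in WT mouse 4, the other mouse high in both. Both means rest largely on the heat shock genes Hspa1a and Hspa1b, chosen after their values were seen. These read 10.97 and 10.98 in WT mouse 2 and 7.75 and 7.93 in WT mouse 4, against 6-mouse means of 8.78 and 8.98. The part of such stress in the Mt1 and Mt2 levels was not tested. Of 13 measured interleukin-6 and acute phase genes, 4 were higher and 9 lower (median -0.041), again with 0 at an unadjusted p under 0.05. Saa2 and Il6, both dim, had -0.33 ± 0.15 and -0.17 ± 0.088, and the receptor subunit gene Il6st had 0.20 ± 0.12. Of 16 measured genes of copper, iron and manganese handling, 7 were higher and 9 lower (median -0.012) with 0. The transferrin receptor gene Tfrc had -0.68 ± 0.34, the dim hepcidin gene Hamp -0.51 ± 0.24 and the iron exporter gene Slc40a1 -0.30 ± 0.19. After adjustment over all clusters 0 genes of these lists passed limma.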

How the data were processed

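RNA of 6 mice was read on Affymetrix Mouse Gene 2.0 ST arrays. The deposited table holds log2 signals, which the authors made in Affymetrix Expression Console (named in the submitters' processing notes). No version, summarisation method, background correction or build is given in the sources used here. That the scale is log2 was read off the range of the values. Gene names came from the platform table: 23521 of 41345 clusters had 1 symbol and were tested, 1814 had several and 16010 none. All 10 members matched the RefSeq gene table (GRCm38.p6), and 8 the promoter table.

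The genotype test was limma 3.58.1 (R 4.3.3; lmFit and eBayes, two-sided) with Benjamini-Hochberg adjustment over every tested cluster and a threshold of 0.05. Precision is limited by the number of arrays, with a median SE of 0.11. The genotype fit was tried on simulated data with independent noise and planted differences larger than that of any member here. This does not show how well differences as small as those of the members would be found. Levels are not compared between probes of different genes. Members and lists were chosen with earlier results of these data known. Named were all members, Mthfd1, the 5 genes nearest to Mt1 and to Mt2 (predicted genes passed over), and the 3 genes of smallest p in each pathway list; of marker lists only counts are given. Others are said to be chosen after their values were seen. Alternatives covered normalization, centring, dim rows, all rows, the test, blocks and leaving out each mouse.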

Additional observations from a re-analysis of the deposited data

How the results depend on the processing

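With 4 and 2 mice, wide intervals limit every difference given. Under all alternatives run, 0 clusters passed after adjustment, and the differences of Mt3 (0.19 to 0.39) and, where it was fitted, Mt4 (0.54 to 0.76) stayed positive; without dim rows Mt4 had no value. Differences near 0 changed sign. With arrays centred on their median Mtf1 had 0.0056. With the replicate number as a block, Mt1 had -0.0051 and Mt2 -0.019; clusters at an unadjusted p under 0.05 then numbered 2331, and 0 passed after adjustment. The numbers are not known to pair the mice: deviations of same-numbered mice correlated at 0.12 and -0.044 across clusters. The first letter of the mouse identifier (A or B) was also fitted as a block. Mt1 then had 0.063, Mt2 0.19, Mt3 0.36 and Slc39a4 -0.16. In that limma fit 1842 clusters were at an unadjusted p under 0.05, and 0 passed after adjustment. Leaving out each mouse gave -0.062 to 0.12 for Mt1, -0.12 to 0.29 for Mt2, -0.075 to 0.032 for Mtf1, -0.25 to 0.055 for Slc39a4, -0.047 to 0.10 for Slc39a5 and -0.16 to 0.018 for Slc39a14. Clusters whose groups did not overlap numbered 4516 to 10579 with a mouse left out, where fewer arrays make overlap rarer, 2125 without dim rows and 6049 over all rows. Over all 41345 rows 2600 clusters were at an unadjusted limma p under 0.05, beside 1363 of the 23521 clusters with 1 symbol. The limit for dim rows set at the lower quartile, 4.69, also left 1 member dim. The correlation of Mt1 with Mt2 stayed positive under both normalization alternatives. No member had a second row of its own, so the alternative row per gene was not run.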

Other observations

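A few genes of the lists were chosen after their values were seen. The heat shock genes Hspa1a and Hspa1b were highest in WT mouse 2, at 10.97 and 10.98 on the log2 scale, and next highest in the second Mthfd1S+/- mouse, at 9.41 and 10.10. In the other 4 mice Hspa1a read 7.66 to 8.58 and Hspa1b 7.93 to 8.51. WT mouse 4, high in Mt1 and Mt2, was among these low mice. Slc39a10, a zinc importer known to be repressed by MTF1, read 7.74, 6.92, 7.30 and 7.27 in WT mice (1 to 4) against 7.56 and 7.12 in the Mthfd1S+/- mice. It was lowest in WT mouse 2, where Mt1 and Mt2 were highest, and highest in WT mouse 1, where they were lowest. The glucocorticoid-induced kinase gene Sgk1 read 7.64, 8.83, 8.23 and 8.43 in the WT mice against 7.85 and 8.74 in the Mthfd1S+/- mice. Other genes of its list were mixed. Dusp1 was also highest in WT mouse 2, at 8.71, whereas Klf9 and Fkbp5 were lowest there, at 8.51 and 7.01. Links of these genes to Mt1 and Mt2 were not tested. The acute phase lectin genes Reg3b and Reg3g split the WT mice in another way, with mice 1 and 2 at 8.50 and 8.93 for Reg3b and mice 3 and 4 at 6.47 and 5.95.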
